A study of Mus musculus with 12 samples.

Results

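Messenger RNAs of the oxidative phosphorylation system were followed in mouse lymphoma cells after exposures to interferon-γ (IFN-γ) of different length. Members were chosen by gene symbol and level. Their symbols start with mt-Nd, mt-Co, mt-Atp or mt-Cyt for genes of the mitochondrial genome, or with Ndufa, Ndufb, Ndufc, Ndufs, Ndufv, Uqcr, Cox4 to Cox8, Atp5 or Sdha to Sdhd for nuclear genes, and their mean over the 12 libraries was at least 1 CPM, a count scaled to the library size. Of the 53379 rows of the count table, 123 carried such a symbol. Of these, 9 had a -ps name and were left out, and 12 lay under 1 CPM. That leaves 102 members, 13 encoded in the mitochondrial genome and 89 in the nucleus, and all 102 were among the 14299 genes tested. The nuclear members were 37 genes of complex I, 4 of complex II, 8 of complex III, 11 of complex IV and 17 of complex V, and the prefixes also took in 12 assembly factors, 8 of them Ndufaf genes and 4 Sdhaf genes. The members just inside the limit were mt-Nd4l at 2.03 CPM and Ndufaf8 at 3.66 CPM, and the rows just outside it were Cox7a1 at 0.634 CPM and the pseudogene Ndufb4c at 0.294 CPM.

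Oxidative phosphorylation makes ATP in the inner mitochondrial membrane. Complexes I and II pass electrons from NADH and succinate to ubiquinone, complexes III and IV pass them on to cytochrome c and oxygen, and complex V, the ATP synthase, uses the proton gradient that complexes I, III and IV build. All of these complexes except complex II are assembled from subunits of both genomes, the mitochondrial one being transcribed inside the organelle into long RNAs that are cut into separate messages. In B cells, MYC is known to raise many of the nuclear genes, and activation and proliferation place a high demand on the system.

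The groups, with 3 samples in each, were unstimulated cells and cells exposed to recombinant mouse IFN-γ at 5 ng/mL for 1 h, 6 h or 24 h, all of them one Eµ-myc line of C57BL/6 origin, a B cell lymphoma that arises where an immunoglobulin heavy chain enhancer drives Myc. The shorter exposures were ended with 50 µg/mL of a neutralising antibody, and cells were harvested 24 h post stimulation, so the comparisons address what is left in the transcriptome after the cytokine is blocked. Nothing in the labels tells if samples were grown as separate cultures, if antibody was also added to 24 h or unstimulated cultures, or at what time the unstimulated ones were collected. Each p-value is thus set against a spread between samples that may be technical only. Because the samples are bulk RNA, fewer cells and less RNA per cell cannot be told apart.

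Library totals ran from 49440358 to 67096610 counts. Irf1, an early IFN-γ target, stood at 231.3, 214.6 and 217.5 CPM in 24 h cells, against 10.4, 10.5 and 10.8 CPM in unstimulated cells. Gbp2, a guanylate-binding protein gene, was at 1.61, 1.34 and 1.68 CPM in 6 h cells, against 0.431, 0.2 and 0.408 CPM in unstimulated cells. All 9 B cell markers reached 1 CPM, and none of 6 T and NK cell or 3 erythroid markers did. Among other lineages, 1 of 6 myeloid markers and 2 of 4 stromal and endothelial markers reached it, and the summed level of the stromal and endothelial list was 90.1 to 93.8 CPM in 24 h cells, against 60.0 to 61.2 CPM in unstimulated cells. Pecam1, which leukocytes also express, carried this difference, with 87.2, 89.5 and 91.5 CPM in 24 h cells, against 57.3, 58.9 and 57.8 CPM in unstimulated cells. The endothelial marker Cdh5 had 2.9, 2.77 and 2.26 CPM in 24 h cells, against 2.66, 2.3 and 2.72 CPM in unstimulated cells, and Col1a1 and Pdgfrb were under 1 CPM. Any part of other cell types in the results was not tested. Library 3 of the 6 h group stood apart from the other 11 libraries on the second principal component, which held 7.84% of the variance. Several counts and medians that move without it are given both ways.

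Levels of the members, as CPM per kilobase of annotated exon, were widely spread. The top 6 were all mitochondrial: mt-Co1 at 11625, mt-Nd1 at 8173, mt-Cytb at 5097, mt-Nd2 at 3164, mt-Nd5 at 2796 and mt-Nd4 at 1552 CPM per kilobase. The highest nuclear members were Atp5b and Atp5a1, the β and α subunits of the catalytic head of ATP synthase, at 347 and 341 CPM per kilobase. In CPM they had 1401 ± 16.1 CPM for Atp5b and 1048 ± 41.1 CPM for Atp5a1 in 24 h cells, against 1530.4 ± 57.9 and 1103 ± 50.6 CPM in unstimulated cells (SD, n = 3 each). In complex V the lowest was Atp5s, a gene that carries an Atp5 name but codes for an accessory protein, at 2.65 CPM per kilobase.

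Within each complex the levels per kilobase differed by several fold. In complex I, NADH dehydrogenase, the highest was Ndufa4, whose product is now placed in complex IV, at 71.0 CPM per kilobase, and the lowest was Ndufb2 at 0.86. Complex II, succinate dehydrogenase, ran from 113.9 CPM per kilobase for the membrane anchor Sdhd down to 9.51 for the other anchor, Sdhc. Complex III, the cytochrome bc1 complex, had Uqcrb at 104.5 and Uqcrq at 24.3 CPM per kilobase. In complex IV, cytochrome c oxidase, Cox8a stood at 253.3 and Cox6c at 25.6 CPM per kilobase. The assembly factors, which help build complexes and are not part of the finished enzyme, were lower: Ndufaf4 at 22.1 and Ndufaf3 at 2.59 CPM per kilobase for complex I, and Sdhaf2 at 7.75 and Sdhaf3 at 1.33 for complex II. The exon length used is the union of annotated exons, which can exceed the transcript in use, and Ndufab1 is an example with 6883 bases.

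**Figure D1:**
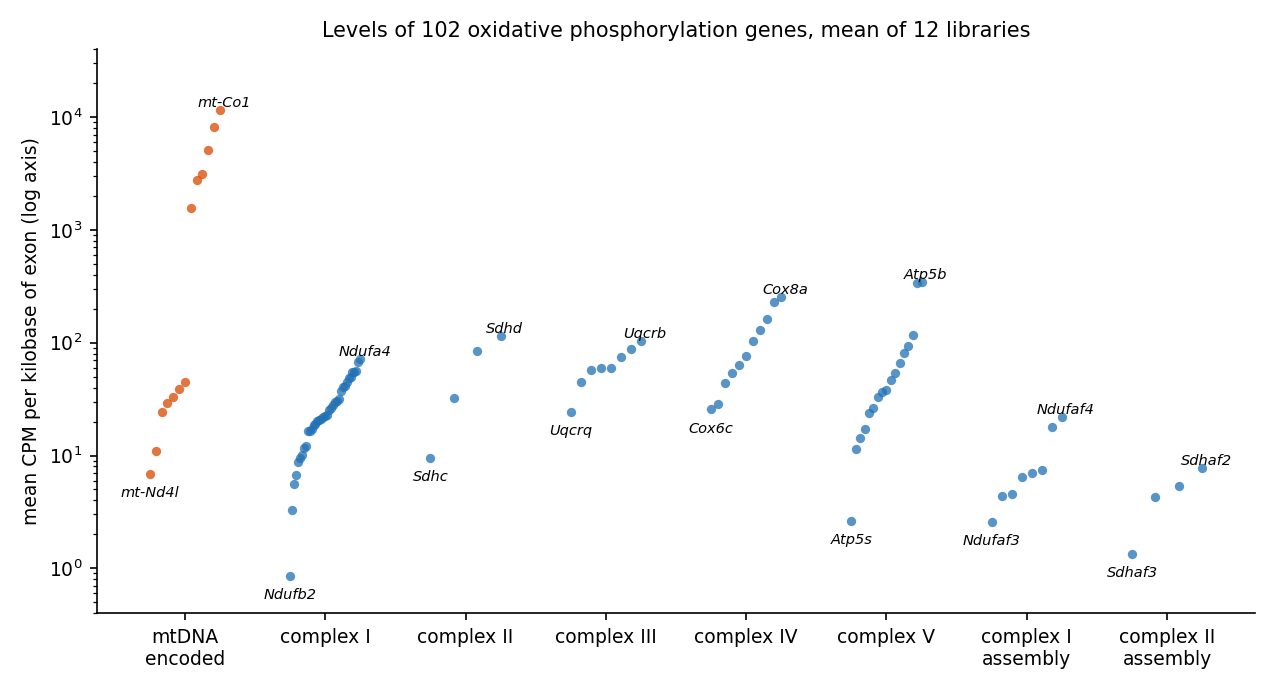
Mean level of each of the 102 members over 12 libraries, in CPM per kilobase of exon on a log axis, by complex or role, with 1 point per gene and the highest and lowest gene of each group named. The mitochondrially encoded genes fall into a high set of 6, from 1552 to 11625, and a low set of 7, from 6.83 to 45.3, while the nuclear genes lie between 0.86 and 347.

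The line used the ubiquitous isoforms of complex IV subunits. Cox4i1 was at 204.3 ± 17.8 CPM in 24 h cells, against 208.9 ± 21.5 CPM in unstimulated cells, whereas its lung-type paralog Cox4i2 averaged 0.0143 CPM. Cox6a1 averaged 160.8 CPM and its heart and muscle counterpart Cox6a2 0.262 CPM, and Cox7a2 averaged 71.8 CPM beside 0.634 CPM for the muscle form Cox7a1. Cox6b1, Cox7b and Cox8a were expressed, while Cox6b2, Cox7b2, Cox8b and Cox8c had 0 counts in all 12 libraries. A count of 0 allows up to 6 counts, equal to 3 read pairs, per library, which is 0.0894 to 0.121 CPM. Ndufa4l2, a paralog of Ndufa4 that hypoxia is known to induce, averaged 0.0121 CPM. The identical c subunit of the ATP synthase ring is encoded by Atp5g1, Atp5g2 and Atp5g3, at 17.1, 37.9 and 53.8 CPM per kilobase. In CPM, Atp5g3 had 123.8 ± 10.8 in 24 h cells, against 118.0 ± 8.18 in unstimulated cells. In the main fit none of the genes for this subunit was called in any comparison with unstimulated cells. Some alternative edgeR fits called Atp5g2 higher at 24 h. Its adjusted p was 0.00931 with a looser filter on low counts, 0.0294 with the exon length trend removed and 0.0374 with the GC trend removed.

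The mitochondrially encoded members split into a high and a low set, and 5 of the 7 low genes have a nearly whole annotated copy in the nuclear genome. In GENCODE M21 on GRCm38 (mm10), 7 annotated copies lie on the minus strand of chromosome 1 between 24611535 and 24616197. The copies of mt-Co2 (Gm28661, 681 of 684 bases), mt-Atp6 (Gm10925, 678 of 681), mt-Co3 (Gm28437, 783 of 784) and mt-Nd4l (Gm10222, 294 of 297) match the mitochondrial gene at every aligned base. The copy of mt-Nd3, Gm28438, matches at all but 1 of 345 bases. By contrast, the copies of mt-Nd4 (Gm28439, 876 of 1378 bases) and mt-Co1 (Gm29216, 492 of 1545 bases) cover 63.6% and 31.8% of the gene. The start of the mt-Co1 copy and of the mt-Nd3 copy are shown as the stretches where a read can tell the genomes apart, with the differing bases in capitals (GENCODE M21 transcripts; mt-Co1 bases 1054 to 1113, at chrM:6381-6440, and mt-Nd3 bases 1 to 60, at chrM:9459-9518, both plus strand; the copies at chr1:24616138-24616197 and chr1:24613060-24613119, minus strand).
mt-Co1: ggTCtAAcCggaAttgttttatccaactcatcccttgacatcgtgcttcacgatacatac
Gm29216: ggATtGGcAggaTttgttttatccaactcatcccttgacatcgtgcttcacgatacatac
mt-Nd3: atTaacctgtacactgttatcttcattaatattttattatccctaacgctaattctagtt
Gm28438: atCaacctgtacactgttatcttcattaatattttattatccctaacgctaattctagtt
Counted from 1 at the first base of the mitochondrial gene, the mt-Co1 copy differs by T1056A, C1057T, A1059G, A1060G, C1062A and A1066T, and the mt-Nd3 copy by T3C.

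Genes with a nearly whole copy were listed at low counts. Averaged over 12 libraries, mt-Co2 stood at 22.5 CPM and Gm28661 at 51.4 CPM, Gm10925 at 100.9 CPM, 5.05 times mt-Atp6, and mt-Co3 at 18.9 CPM and Gm28437 at 54.8 CPM. The pair mt-Nd4l and Gm10222 was at 2.03 and 7.76 CPM, and mt-Nd3 and Gm28438 were at 3.8 and 2.42 CPM. The genes covered only in part kept high counts, with 2138 CPM for mt-Nd4 beside 21.9 CPM for Gm28439, and 17960.4 CPM for mt-Co1 beside 22.9 CPM for Gm29216. Also low were mt-Atp8, at 7.95 CPM, which lies between mt-Co2 and mt-Atp6 in the mitochondrial genome, and mt-Nd6, at 23.5 CPM, the only member on the other strand. On chromosome 1, Gm10925 ends at 24614651 and Gm28661 starts at 24614885. The stretch between them was not compared with mt-Atp8, so a copy of it without annotation there is possible. How reads that map to both places were counted is not given in the sources used here, so the level of a gene with a copy, and of its copy, is uncertain for the single gene. None of the 7 copies was called at 24 h against unstimulated cells, with adjusted p between 0.284 and 0.995 (edgeR's quasi-likelihood test).

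**Figure D2:**
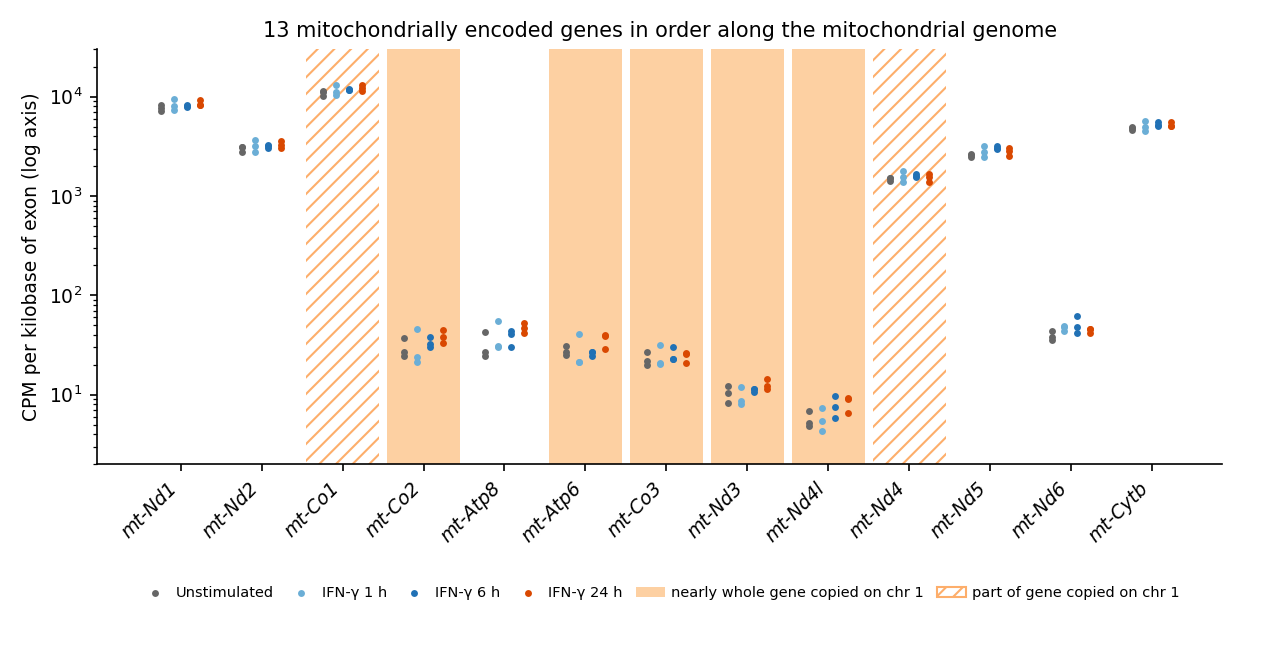
Level of the 13 mitochondrially encoded members in each of the 12 libraries, in CPM per kilobase of exon on a log axis, in their order along the mitochondrial genome. Shading marks genes with a nearly whole annotated copy on chromosome 1 and hatching those with a partial one. The shaded genes average 6.83 to 32.9, and the high set 1552 to 11625.

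Mitochondrially encoded members made up 3.98% ± 0.237 of all counts in unstimulated cells, 4.20% ± 0.496 at 1 h, 4.32% ± 0.07 at 6 h and 4.39% ± 0.325 at 24 h (SD, n = 3 each). The 6 high genes supplied 99.74% to 99.8% of these counts in every library. Genes with a nearly whole copy on chromosome 1 thus add almost nothing to the share. Any reads of theirs that were left uncounted would be missing from it, which was not tested. In single libraries the share was 4.06%, 4.16% and 3.71% in unstimulated cells, 4.73%, 3.74% and 4.14% at 1 h, 4.25%, 4.32% and 4.39% at 6 h, and 4.74%, 4.32% and 4.10% at 24 h. The 95% Wilson intervals reach at most 0.0056 percentage points to either side and address counting error only. They take each count as independent, so they are too narrow if both ends of read pairs were counted. All 3 libraries of the 6 h group lay above the highest unstimulated library, while the 24 h and 1 h groups overlapped with unstimulated cells.

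The share of nuclear members was 0.898% ± 0.0357 of counts in unstimulated cells, 0.864% ± 0.0168 at 1 h, 0.856% ± 0.0363 at 6 h and 0.877% ± 0.0308 at 24 h (SD, n = 3 each). Mitochondrially encoded counts were thus 4.44 ± 0.426, 4.87 ± 0.655, 5.05 ± 0.147 and 5.01 ± 0.515 times the nuclear member counts in the same order. On the log2 scale the ratio of single libraries was 2.16, 2.28 and 2.00 in unstimulated cells, 2.47, 2.08 and 2.28 at 1 h, 2.35, 2.37 and 2.29 at 6 h, and 2.47, 2.33 and 2.17 at 24 h. The lowest 6 h library exceeded the highest unstimulated one by a small margin, and the 1 h and 24 h libraries overlapped with the unstimulated ones. These shares are sums over chosen members and carry no test. The shares and ratios of mitochondrially encoded counts may be too low where reads shared with the copies on chromosome 1 were not counted.

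**Figure D3:**
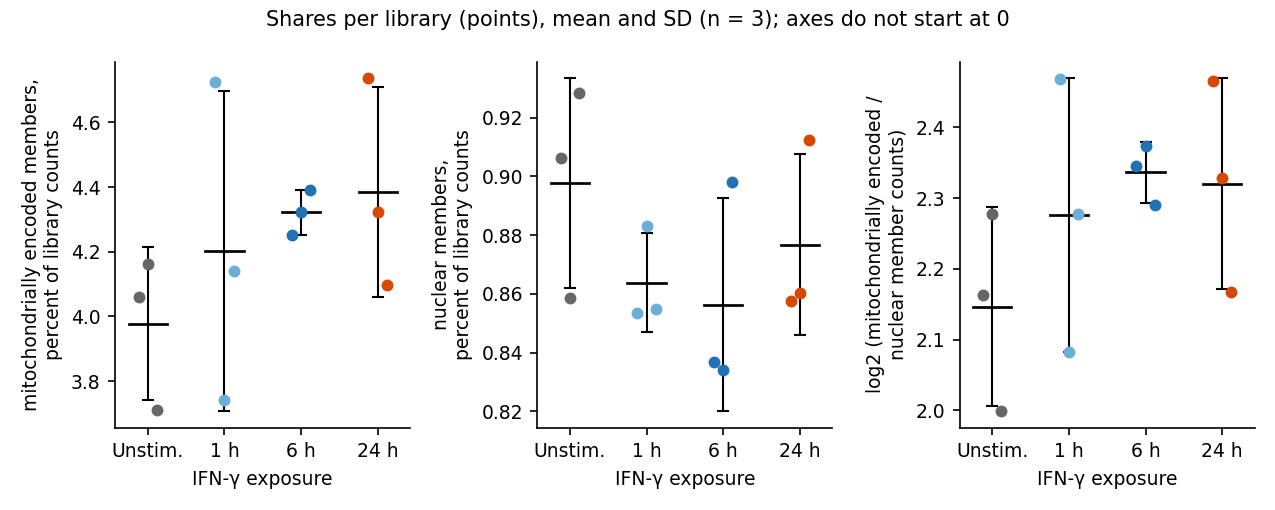
Share of library counts on the 13 mitochondrially encoded members (left), on the 89 nuclear members (middle) and the log2 ratio of the summed counts (right), for each library by IFN-γ exposure, with the mean and SD (n = 3). The 6 h libraries sit at 2.29 to 2.37 on the ratio axis, above the unstimulated libraries at 2.00 to 2.28 (means 2.34 and 2.15), and the 24 h libraries, at 2.17 to 2.47, overlap with them.

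Among the 89 nuclear members, 2 were higher and 4 were lower after 24 h of IFN-γ than in unstimulated cells, and among the 13 mitochondrially encoded ones none was called. Over all genes tested, 10.3% were higher and 8.35% were lower, at an adjusted p under 0.05 (edgeR's quasi-likelihood test with Benjamini-Hochberg adjustment over 14299 genes; such genes are termed called). Called genes of either direction made up 6.74% of the nuclear members and 18.7% of all genes tested. The number of nuclear members called higher depended on the fit: it was 10 with a looser filter on low counts, 12 with each library's trend on exon length removed and 16 with that trend removed and a replicate block, with 4 called lower in each. The number called higher was 8 without library 3 of the 6 h group, and also without library 3 of the unstimulated group. The median log2 fold change was 0.01 over nuclear members and -0.0028 over all genes. With 1 library left out, the nuclear median ran from -0.0131 without library 3 of the 24 h group to 0.066 without library 3 of the unstimulated group. The changes were small, from -0.20 to 0.35 on the log2 scale over all 89 nuclear members.

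Both nuclear genes that rose are linked to complex I. Ndufab1 (ENSMUSG00000030869.11, chromosome 7, 122085403 to 122101886), the mitochondrial acyl carrier protein that is also a complex I subunit, had 51.8, 48.8 and 60.2 CPM in 24 h cells, against 39.7, 42.8 and 43.8 CPM in unstimulated cells. The groups did not overlap, and the log2 fold change was 0.35 (SE 0.07, adjusted p = 0.000918). Ndufaf7 (ENSMUSG00000024082.4, chromosome 17, 78937136 to 78948052), a methyltransferase that acts in complex I assembly, had 28.4, 31.0 and 29.6 CPM in 24 h cells, against 24.7, 24.3 and 25.2 CPM in unstimulated cells. Its log2 fold change was 0.26 (SE 0.07, adjusted p = 0.00604), again with no overlap. Both calls held in all 23 alternative fits, with adjusted p up to 0.0114 for Ndufab1 and 0.0426 for Ndufaf7.

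The 4 nuclear genes that fell came from complexes I, IV and V. Cox6a1 (ENSMUSG00000041697.8, chromosome 5, 115345642 to 115348981), a small nuclear subunit of cytochrome c oxidase, had 145.5, 149.4 and 157.6 CPM in 24 h cells, against 172.6, 162.2 and 171.3 CPM in unstimulated cells, a log2 fold change of -0.16 (SE 0.04, adjusted p = 0.00679). Ndufb5 (ENSMUSG00000027673.12, chromosome 3, 32736990 to 32751566), an accessory subunit of the membrane arm of complex I, had 91.2, 92.1 and 90.5 CPM, against 96.7, 101.1 and 107.0 CPM in unstimulated cells, a log2 fold change of -0.15 (SE 0.05, adjusted p = 0.026). For both genes every 24 h library lay under every unstimulated one.

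Atp5b (ENSMUSG00000025393.12, chromosome 10, 128083273 to 128090391) had 1393, 1391 and 1419.8 CPM in 24 h cells, against 1563, 1464 and 1565.0 CPM in unstimulated cells, a log2 fold change of -0.13 (SE 0.04, adjusted p = 0.0294). Ndufa10 (ENSMUSG00000026260.12, chromosome 1, 92439010 to 92473860), another accessory subunit of complex I, had 173.7, 176.5 and 182.1 CPM, against 191.8, 187.3 and 196.9 CPM in unstimulated cells, a log2 fold change of -0.11 (SE 0.04, adjusted p = 0.0424). The groups did not overlap for either gene. Of 23 alternative fits, 4 lost the call of Cox6a1, 5 that of Atp5b, 5 that of Ndufb5 and 12 that of Ndufa10, with adjusted p up to 0.336, 0.144, 0.178 and 0.181 for the same genes. Cox6a1 is the shortest of them, with 702 bases of exon, and lost its call when each library's trend on exon length was removed.

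**Figure D4:**
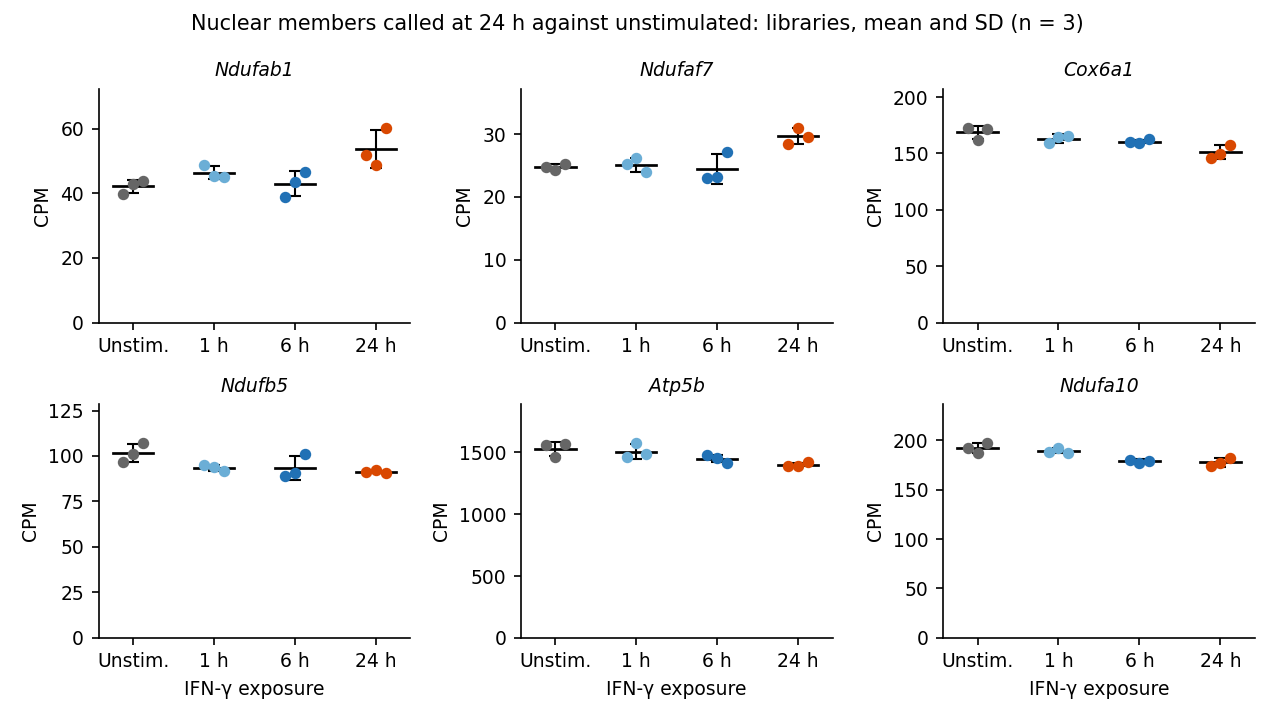
CPM of the 6 nuclear members called at 24 h against unstimulated cells, for each library by IFN-γ exposure, with the mean and SD (n = 3) and axes from 0. Ndufab1 and Ndufaf7 are highest at 24 h, and Cox6a1, Ndufb5, Atp5b and Ndufa10 are lower at 24 h than in unstimulated cells, at 0.894 to 0.924 of the unstimulated level.

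Mitochondrially encoded members had fitted log2 fold changes above 0 at 24 h in 13 of 13 cases, with a median of 0.165, but none was called (edgeR). Their median was 0.11 without library 1 of the 24 h group and 0.211 without library 2 of the unstimulated group. Over all genes tested, 7062 of 14299 lay above 0. Copies on chromosome 1 had fitted values of -0.20 for Gm10925 (mt-Atp6), -0.30 for Gm28437 (mt-Co3) and -0.28 for Gm28438 (mt-Nd3). Gm28661 (mt-Co2) was at 0.003, Gm10222 (mt-Nd4l) at 0.01, Gm28439 (mt-Nd4) at 0.12 and Gm29216 (mt-Co1) at -0.16. For genes with a copy, the direction may depend on how shared reads were counted, which was not tested. At an unadjusted p under 0.05 there were 2 mitochondrially encoded members, beside 4322 of all 14299 genes tested. DESeq2 called 0 of these members. mt-Co1 (ENSMUSG00000064351.1, mitochondrial genome, 5328 to 6872), the catalytic core of cytochrome c oxidase, had 20420.0, 18834 and 17479.6 CPM in 24 h cells, against 17238, 17577 and 15795 CPM in unstimulated cells, a log2 fold change of 0.16 (SE 0.07, adjusted p = 0.149) with overlapping groups. mt-Cytb (14145 to 15288), the cytochrome b of complex III, had 6309, 5791 and 5812 CPM in 24 h cells, against 5696, 5564.5 and 5282 CPM in unstimulated cells. These groups did not overlap, yet the log2 fold change of 0.11 (SE 0.07) had an adjusted p of 0.26. The 4 other high genes code for core subunits of the membrane arm of complex I. Their log2 fold changes were 0.16 for mt-Nd1, 0.14 for mt-Nd2, 0.06 for mt-Nd4 and 0.13 for mt-Nd5, with adjusted p from 0.272 to 0.709 and overlap in each.

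The 7 low mitochondrially encoded genes had larger standard errors than the 6 high ones, and the fitted values of all but mt-Co3 were larger too. mt-Atp8, a subunit of ATP synthase, had 10.8, 9.67 and 8.42 CPM in 24 h cells, against 5.5, 8.79 and 4.98 CPM in unstimulated cells, a log2 fold change of 0.59 (SE 0.30, adjusted p = 0.225). mt-Nd4l, a small subunit of complex I, had 2.66, 2.78 and 1.95 CPM, against 1.44, 2.02 and 1.55 CPM in unstimulated cells, a log2 fold change of 0.56 (SE 0.22, adjusted p = 0.0762). Both genes had libraries that overlapped between the groups. The others were 0.37 for mt-Atp6, 0.40 for mt-Co2, 0.09 for mt-Co3, 0.31 for mt-Nd3 and 0.19 for mt-Nd6, with adjusted p from 0.181 to 0.823.

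After 6 h of IFN-γ followed by blockade, no member was called against unstimulated cells, and 1.59% of all genes tested were (edgeR). At an unadjusted p under 0.05, 11 nuclear members were lower and 3 mitochondrially encoded ones were higher, beside 2008 of all 14299 genes tested. DESeq2 called Ndufc1 lower and mt-Nd6 higher. Fitted log2 fold changes were below 0 in 77 of 89 nuclear members, with a median of -0.06, and above 0 in 12 of 13 mitochondrially encoded members, with a median of 0.13. Over all genes tested, 50.0% were below 0 and the median was 0. With 1 library left out, the nuclear median ran from -0.134 without library 3 of the 6 h group to -0.0379 without library 3 of the unstimulated group. The mitochondrial median ran from 0.0669 without library 3 to 0.263 without library 2 of the unstimulated group. The nuclear subunits had a median of -0.07 and the assembly factors one of -0.02.

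Ndufc1, a small complex I subunit, had the lowest log2 fold change of the nuclear members, with 12.9, 13.6 and 15.7 CPM in 6 h cells, against 16.1, 17.9 and 17.6 CPM in unstimulated cells, a log2 fold change of -0.29 (adjusted p = 0.0725, edgeR). Sdhaf3 had the highest nuclear log2 fold change, 0.22. Among mitochondrially encoded members the values ran from -0.08 for mt-Atp6 (adjusted p = 0.938, edgeR) to 0.46 for mt-Nd4l (adjusted p = 0.351, edgeR), which had 1.74, 2.24 and 2.9 CPM in 6 h cells, against 1.44, 2.02 and 1.55 CPM in unstimulated cells, with overlap. mt-Nd6 had 25.1, 31.8 and 21.5 CPM in 6 h cells, against 22.5, 19.9 and 18.5 CPM in unstimulated cells, a log2 fold change of 0.36 (adjusted p = 0.145, edgeR), with overlap. mt-Nd5 had 5485, 5766 and 5364 CPM in 6 h cells, against 4694, 4801 and 4485.5 CPM in unstimulated cells, all 3 above all 3, with a log2 fold change of 0.25 (adjusted p = 0.222, edgeR). Ndufc1, Sdhaf3 and the genes in the next paragraph were chosen after their values were seen.

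These counts rest on library 3 of the 6 h group. Without it, 8 nuclear members were lower than in unstimulated cells: Atp5e, Atp5j, Atp5h and Atp5j2 of ATP synthase, Ndufb5, Ndufa4 and Ndufc1, and Cox6b1 of cytochrome c oxidase. Their log2 fold changes in that fit ran from -0.38 for Atp5e to -0.185 for Ndufb5, and mt-Nd6 was higher with 0.48 (adjusted p = 0.00323, edgeR). The number of genes called over the whole table was 228 with the library and 531 without it. Atp5e had 20.9, 20.5 and 28.1 CPM in 6 h cells, against 24.4, 26.1 and 30.1 CPM in unstimulated cells. Library 3 was the highest in both groups. The nuclear share of counts was likewise highest in library 3 of the unstimulated, 6 h and 24 h groups, at 0.928%, 0.898% and 0.912%. At 1 h it was highest in library 2, at 0.883%. A fit that leaves out library 3 of the 6 h group keeps library 3 of the other groups. The part of library 3 of the 6 h group in the result was not tested beyond leaving it out.

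After 1 h of IFN-γ followed by blockade, no member was called either, and 0.42% of all genes tested were (edgeR). At an unadjusted p under 0.05, 5 nuclear members were lower and 1 mitochondrially encoded one, mt-Nd6, was higher, beside 1324 of all 14299 genes tested. DESeq2 called 0 members. The median log2 fold change was -0.05 over nuclear members, with 69 of 89 below 0, and 0.08 over mitochondrially encoded members, with 12 of 13 above 0. Over all genes tested, 50.0% were below 0. These medians rest on single libraries. The mitochondrial one was -0.0325 without library 1 and 0.175 without library 2 of the 1 h group, and the nuclear one ran from -0.0784 without library 2 to -0.00827 without library 3 of the unstimulated group. For mt-Nd6 the 1 h libraries had 22.7, 25.1 and 25.7 CPM, against 22.5, 19.9 and 18.5 CPM in unstimulated cells, which do not overlap, with a log2 fold change of 0.27 (adjusted p = 0.473, edgeR). mt-Co1 had 20187, 15919.9 and 17406 CPM at 1 h, a range that overlaps with the unstimulated libraries. The comparisons of 1 h, 6 h and 24 h cells with unstimulated cells share the same 3 unstimulated libraries, so their members' values are not independent.

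**Figure D5:**
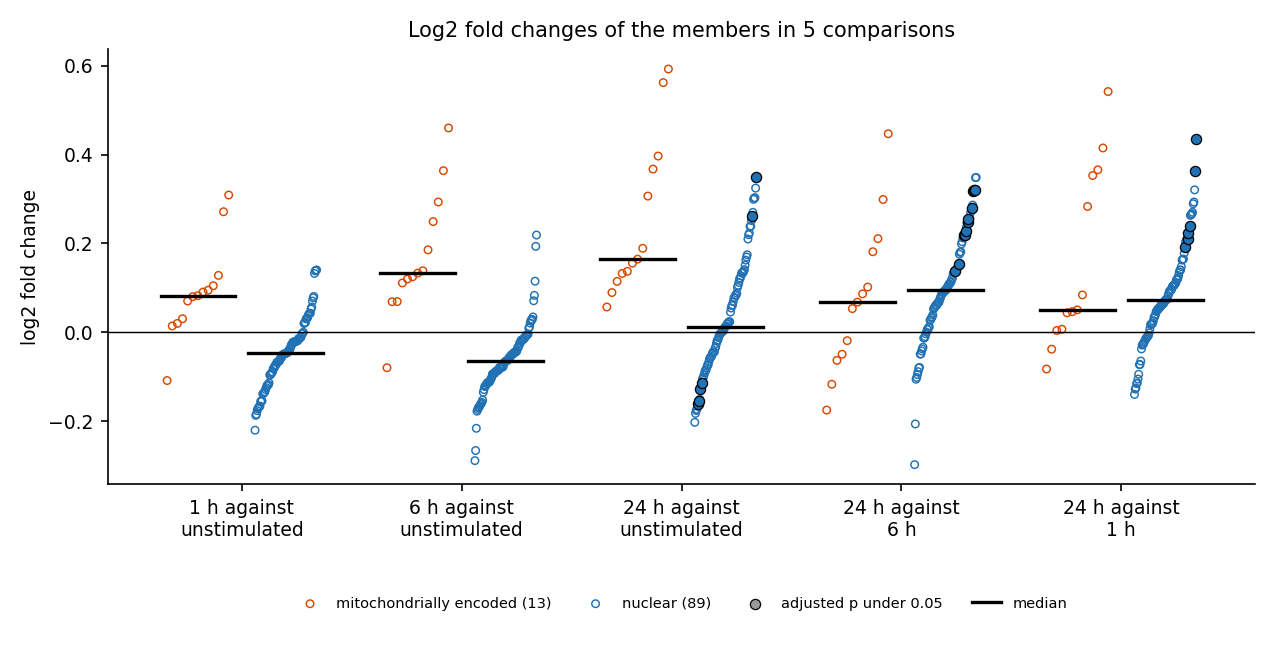
Log2 fold change of each of the 13 mitochondrially encoded (left, orange) and 89 nuclear (right, blue) members in 5 comparisons, with filled points for an adjusted p under 0.05 and bars for the median. Medians are 0.08 and -0.05 at 1 h, 0.13 and -0.06 at 6 h and 0.165 and 0.01 at 24 h against unstimulated cells, in the order mitochondrially encoded and nuclear.

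Set directly against the 6 h exposure, the 24 h exposure gave 11 nuclear members higher and 0 lower (edgeR), while over all genes tested 8.92% were higher and 7.63% lower. DESeq2 called 13 higher and 0 lower, and 26 nuclear members had an unadjusted p under 0.05, beside 4043 of all 14299 genes tested. The median log2 fold change was 0.10 over nuclear members, with 72 of 89 above 0, and -0.0026 over all genes, with 7067 of 14299 above 0. Without library 3 of the 6 h group the nuclear median was 0.178, and without library 3 of the 24 h group it was 0.0566. No mitochondrially encoded member was called, none had an unadjusted p under 0.05, and DESeq2 called 0. Since the naming rule covers comparisons with unstimulated cells, the genes of this and the next paragraph, apart from those already described, were chosen after their values were seen.

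The 11 genes were the complex I subunits Ndufab1, Ndufa1, Ndufa6 and Ndufs3, the assembly factors Ndufaf1, Ndufaf6 and Ndufaf7, Sdhd of complex II, Cox5b and Cox7b of complex IV and Atp5l of complex V. Cox7b had 81.2, 81.4 and 88.8 CPM in 24 h cells, against 67.7, 70.8 and 77.5 CPM in 6 h cells, a log2 fold change of 0.22 (SE 0.05, adjusted p = 0.00513). Ndufaf1, a chaperone of early complex I assembly, had 28.3, 28.2 and 30.0 CPM, against 22.8, 25.7 and 24.4 CPM in 6 h cells, a log2 fold change of 0.25 (SE 0.06, adjusted p = 0.00584). In both genes the groups were separate. Among the called genes the largest value was that of Ndufab1, 0.32 (SE 0.07, adjusted p = 0.00227), followed by Ndufaf6 at 0.32 and Ndufa1 at 0.32, and the smallest that of Sdhd, 0.14 (adjusted p = 0.02). Ndufa6 was the only one of the 11 whose groups overlapped. The calls of Ndufab1, Ndufaf7 and Cox7b held in all 23 alternative fits. Cox5b lost its call in 8, Ndufs3 in 6, Atp5l in 5 and Ndufa6 in 4. Ndufa1 and Ndufaf6 lost theirs in 3 each, Sdhd in 2 and Ndufaf1 in 1. The count of members called higher ran from 4 without library 1 to 36 without library 3 of the 6 h group.

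Against the 1 h exposure, 6 nuclear members were higher at 24 h and 0 were lower (edgeR), with 10.2% higher and 8.78% lower over all genes tested. DESeq2 called 7 higher and 1 lower, and 18 nuclear members had an unadjusted p under 0.05, beside 4313 of all 14299 genes tested. The 6 were Ndufab1, Ndufa1, Ndufa6, Ndufaf7, Sdhaf4 and Atp5l. Of 23 alternative fits, 9 lost the call of Atp5l, 5 each those of Ndufa6, Ndufab1 and Sdhaf4, and 2 each those of Ndufa1 and Ndufaf7. Ndufa1, a small subunit that complex I assembly is known to need, had 13.3, 13.7 and 16.4 CPM in 24 h cells, against 11.4, 12.2 and 10.2 CPM in 1 h cells, a log2 fold change of 0.36 (SE 0.09, adjusted p = 0.00587). Sdhaf4, an assembly factor of complex II, had 5.17, 5.77 and 5.43 CPM, against 4.04, 3.6 and 4.44 CPM in 1 h cells, a log2 fold change of 0.44 (SE 0.15, adjusted p = 0.0376). None of the mitochondrially encoded members was called; 2 had an unadjusted p under 0.05 and DESeq2 called 0. The count of nuclear members ran from 1 without library 3 of the 24 h group to 12 without library 3 of the 6 h group. Between 6 h and 1 h cells no member was called, beside 0.0979% of all genes tested. In that comparison 4 nuclear and 0 mitochondrially encoded members had an unadjusted p under 0.05, beside 706 of all 14299 genes tested. DESeq2 called 0 members.

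Nuclear members were mostly short, and mitochondrially encoded members were low in GC content. Other genes alike in these features had medians away from 0. In GC content the nuclear members, with a median of 49.7%, were close to all genes tested, with 49.3%. Nuclear members had a median exon length of 1789 bases, against 3709 bases over all genes tested, and 61 of 89 fell in the 3 shortest of 10 bins of equal gene number. Other genes in these bins had a median log2 fold change of -0.03 at 24 h, -0.02 at 6 h and -0.04 at 1 h against unstimulated cells. Of these genes, 53.8%, 54.6% and 58.4% lay below 0 in that order. The mitochondrially encoded members had a GC content of 31.9% to 41.1%, and the 1450 other genes in this range had medians of 0.07, 0.06 and 0.06 in the same order. Of those genes, 34.1%, 31.0% and 26.8% lay below 0. With each library's trend on exon length removed, the nuclear median was 0.03 at 24 h, -0.04 at 6 h and -0.02 at 1 h. With the trend on GC content removed instead, the mitochondrial median was 0.06, 0.08 and 0.01. The part of length and base composition in single members was not tested beyond these fits.

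Lists of related genes held 120 tested genes, each counted once and some of them members. Of these, 10 were called at 24 h, beside 18.7% of all genes tested (10.3% higher and 8.35% lower). None was called at 6 h or 1 h against unstimulated cells by edgeR. At an unadjusted p under 0.05 there were 13 at 6 h and 4 at 1 h, beside 2008 and 1324 of all 14299 genes tested. DESeq2 called 1 and 0 of the listed genes. A list of further subunits and carriers had 15 tested genes, 2 of them members. Of these, Higd2a, a factor of respiratory supercomplexes, was higher with a log2 fold change of 0.21 (adjusted p = 0.0237, edgeR). Its call was lost in 3 of 23 alternative fits, with adjusted p up to 0.192 without library 3 of the 24 h group. Dhodh, which feeds electrons from pyrimidine synthesis into ubiquinone, was lower with -0.25 (adjusted p = 0.0033, edgeR). Dhodh had 27.1, 29.8 and 28.9 CPM in 24 h cells, against 33.0, 33.0 and 35.9 CPM in unstimulated cells. Of 15 complex I assembly factors, 8 of them members, the member Ndufaf7 was higher. Ecsit was lower, with a log2 fold change of -0.21 (adjusted p = 0.00215, edgeR). The list of 32 assembly factors of complexes II to V, 4 of them members, had 0 calls by edgeR at 24 h. The list of 20 genes of the tricarboxylic acid cycle also had 0. At an unadjusted p under 0.05 there were 1 and 7 genes in the same order, beside 4322 of all 14299 genes tested. DESeq2 called 1 in each list.

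Of 9 tested nuclear regulators of respiratory genes, 3 were lower at 24 h and 0 higher, beside 8.35% lower and 10.3% higher over all genes tested. Pprc1, a coactivator of the PGC-1 family, had 166.1, 170.7 and 175.1 CPM in 24 h cells, against 208.0, 208.1 and 197.3 CPM in unstimulated cells, a log2 fold change of -0.26 (SE 0.0415, adjusted p = 2.61e-05). Nrf1, nuclear respiratory factor 1, had 63.9, 62.4 and 59.4 CPM, against 75.8, 66.9 and 72.1 CPM in unstimulated cells, a log2 fold change of -0.21 (SE 0.05, adjusted p = 0.0039). The groups of both genes were separate, and the third gene was Hcfc1, with a log2 fold change of -0.16 (adjusted p = 0.0318). Of 28 genes of mitochondrial transcription and RNA handling, Polg2, an accessory subunit of the mitochondrial DNA polymerase, was higher with 0.30 (adjusted p = 0.0445, edgeR, overlapping groups). Fastkd3 was lower with -0.18 (adjusted p = 0.0115, edgeR). Of 23 alternative fits, 8 lost the call of Polg2, 2 that of Fastkd3 and 1 that of Nrf1. Of the mitochondrial ribosomal RNAs, mt-Rnr1, the 12S rRNA, had 315.4, 306.8 and 314.6 CPM in 24 h cells, against 257.3, 266.5 and 220.9 CPM in unstimulated cells. Its log2 fold change was 0.33 (SE 0.08, adjusted p = 0.0144, edgeR), a call lost in 3 of 23 alternative fits. For mt-Rnr2, the 16S rRNA, it was 0.11 (adjusted p = 0.588, edgeR). Both rRNAs together were 0.094% of counts in unstimulated cells, 0.107% at 1 h, 0.094% at 6 h and 0.105% at 24 h. In libraries made from polyadenylated RNA, these counts cover the part of the rRNA that was captured.

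Some motifs, which the choice of members did not use, were more frequent in promoters of nuclear members than in all promoters. In the RefSeq table (GRCm38.p6), 76 nuclear members had 81 promoters of 300 bases, from 250 before to 50 after the start, and all genes had 32851. The core of the NRF1 site, CGCANGCG, was found on either strand in 40.7% of member promoters and in 8.21% of all promoters. The ETS family motif CCGGAAG, the letters that GABP binds, was found in 25.9% and 8.86%, and the YY1 motif AANATGGCG in 14.8% and 2.38%. The E-box CACGTG, which MYC binds, was found in 8.64% and 7.15%. AGTTTCNNT, a part of the interferon-stimulated response element, was found in 2.47% of member promoters and 4.94% of all promoters. Median GC content was 59.0% in member promoters and 52.7% in all promoters, and the motifs with CG letters were not compared at equal GC. Members were chosen at 1 CPM or more, whereas all promoters were taken without regard to expression, so the sets also differ in that. Matches of different motifs may overlap in part.

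Promoters of called members are shown to place these motifs, with matches to the NRF1, ETS and YY1 letters in capitals. Cox6a1 (chr5:115348909-115349208, minus strand) holds NRF1 and ETS letters, and Atp5b (chr10:128083057-128083356, plus strand) holds YY1 letters on the other strand. Ndufab1 (chr7:122101799-122102098, minus strand) and Ndufaf7 (chr17:78936885-78937184, plus strand), the members that rose at 24 h, hold none of these motifs in this window, and neither do Ndufb5 and Ndufa10, which fell.
Cox6a1: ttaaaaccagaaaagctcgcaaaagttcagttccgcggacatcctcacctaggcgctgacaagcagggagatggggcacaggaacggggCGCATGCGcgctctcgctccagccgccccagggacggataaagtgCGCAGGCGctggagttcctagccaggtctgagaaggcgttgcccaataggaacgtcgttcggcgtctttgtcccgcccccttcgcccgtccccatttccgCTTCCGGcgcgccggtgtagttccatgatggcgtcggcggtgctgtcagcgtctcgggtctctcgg
Atp5b: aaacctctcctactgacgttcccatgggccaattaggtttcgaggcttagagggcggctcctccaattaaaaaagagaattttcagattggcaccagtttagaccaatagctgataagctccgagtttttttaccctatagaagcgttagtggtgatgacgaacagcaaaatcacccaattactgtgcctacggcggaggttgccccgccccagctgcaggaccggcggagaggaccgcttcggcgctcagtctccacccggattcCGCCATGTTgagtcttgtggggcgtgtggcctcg
Ndufab1: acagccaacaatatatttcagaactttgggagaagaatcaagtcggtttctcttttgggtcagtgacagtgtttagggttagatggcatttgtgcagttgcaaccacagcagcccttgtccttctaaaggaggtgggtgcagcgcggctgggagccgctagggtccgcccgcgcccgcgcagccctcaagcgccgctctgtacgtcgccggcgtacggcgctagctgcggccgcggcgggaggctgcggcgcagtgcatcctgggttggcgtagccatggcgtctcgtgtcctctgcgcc
Ndufaf7: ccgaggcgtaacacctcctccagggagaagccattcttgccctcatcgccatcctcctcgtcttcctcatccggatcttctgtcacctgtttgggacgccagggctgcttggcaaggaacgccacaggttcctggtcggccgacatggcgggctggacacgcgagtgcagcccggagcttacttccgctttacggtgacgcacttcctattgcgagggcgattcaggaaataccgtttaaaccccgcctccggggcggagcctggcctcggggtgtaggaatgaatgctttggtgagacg
Matches are letters only, not tested sites.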

How the data were processed

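The authors deposited 1 table of read counts per gene for 12 libraries, made from polyadenylated RNA with a stranded kit and read as 125 bases from both ends, per the labels' protocols. Named per the submitters' processing notes are the mm10 build, Picard, the aligner STAR 2.5.2a and the counter featureCounts 1.4.3-p1. Not given in the sources used here are the annotation release, the strand setting and the handling of reads that map to several places. Between 69.9% and 73.9% of the counts from 1 to 20 were even, so both ends of many pairs may have been counted.

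Gene names, exon lengths and coordinates came from GENCODE M21, which matched 53274 of 53379 rows (99.8%). Counts were tested with edgeR 4.0.16 in R 4.3.3 (quasi-likelihood fit of 4 groups over all 12 libraries, TMM scaling, filterByExpr, Benjamini-Hochberg adjustment over 14299 genes, threshold 0.05, 8 residual degrees of freedom). DESeq2 1.42.0, other filters and scalings, length and GC offsets, a replicate block, fits of 6 libraries and leaving out each library were the alternatives. CPM are scaled by TMM. On simulated data for 24 h against unstimulated cells with 14060 genes, 41.8%, 83.6% and 98.5% of changes of 0.25, 0.5 and 1 on the log2 scale were recovered.

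Members and lists were chosen with earlier results of these data known. Genes are named by rule: all mitochondrially encoded members, called nuclear members against unstimulated cells, the highest and lowest of each role, an isoform list, the rows next to the level limit, up to 2 called genes in each direction per list, and Irf1 and Gbp2. Protein sequences were not used here. One of the planned promoter motifs is not reported here.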

Additional observations from a re-analysis of the deposited data

Results flagged for a closer look

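Exposures were set against each other directly, so each value here is a test of the difference between the effects of 2 exposures, which share the unstimulated cells; it is the log2 fold change of 24 h over 6 h or 1 h cells, called by edgeR's quasi-likelihood test. In both contrasts, Ndufa1 had 0.3173 over 6 h and 0.3626 over 1 h cells. Ndufa6 had 0.2544 over 6 h and 0.2242 over 1 h cells, Ndufab1 had 0.3208 and 0.2106, Ndufaf7 had 0.2789 and 0.24, and Atp5l had 0.2188 and 0.1921, in the same order. Over 6 h cells alone, the values called were 0.1547 for Ndufs3, 0.248 for Ndufaf1, 0.3206 for Ndufaf6, 0.1377 for Sdhd, 0.227 for Cox5b and 0.2199 for Cox7b. Over 1 h cells alone, Sdhaf4 had 0.4356. Single libraries were not screened as outliers, since groups of 3 are too small for that.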

How the results depend on the processing

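Of 4048 values of single genes under alternatives, 3900 stayed on the same side of the threshold, 103 lost a call, 45 gained one and none with a call turned round. The 24 h against unstimulated comparison moved most in the number of nuclear members called higher, 2 as reported. It was 10 with a filter of at least 1 count in any library, 12 with the exon length trend removed, 8 with the GC trend removed, 4 in a fit of the 6 libraries compared and 5 with DESeq2. Mitochondrially encoded members called higher, 0 as reported, were 2 with that filter, 2 with the length trend removed and 2 with 6 libraries. At 6 h, nuclear members called lower were 2 with the filter, 1 with the GC trend removed and 1 with DESeq2, and mitochondrially encoded ones called higher were 1 with the filter, 1 with 6 libraries and 1 with DESeq2. At 1 h, 1 mitochondrially encoded member was called higher with the filter. For 24 h over 6 h, nuclear members called higher were 18 with the filter; with the GC trend removed, 1 nuclear and 1 mitochondrially encoded member were called lower, and with 6 libraries 1 mitochondrially encoded member was called higher. For 24 h over 1 h, nuclear members called higher were 13 with the filter and 18 with 6 libraries, those called lower were 2 with either trend removed and 1 with DESeq2, and mitochondrially encoded ones called higher were 2 with the filter, 2 with the length trend removed and 2 with 6 libraries. The log2 ratio at 6 h was 2.38 with subunits alone. Genes called at 6 h (228) were 413 with the filter, 95 with 6 libraries and 374 with DESeq2, at 1 h (60) 174, 104 and 128, and for 6 h over 1 h (14) 36, 9 and 34. The causes were not tested.

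The labels do not say if replicate numbers pair the samples. Correlations of same-numbered libraries ran from -0.0656 to 0.0618, and 12 of 36 pairs of library and group were best with their own number. With so few libraries per group, these values cannot decide if samples were paired. With the replicate block, nuclear members called higher were 9 at 24 h against unstimulated cells (16 with the length and 13 with the GC trend also removed), 18 over 6 h cells (18 and 23) and 15 over 1 h cells (15 and 12). With the block, mitochondrially encoded members called higher at 24 h against unstimulated cells were 4 with the length trend removed, at 6 h 1 with the GC trend removed, and for 24 h over 1 h 1, or 2 with the length trend removed. With the block and the GC trend removed, 1 nuclear member was called lower at 6 h, 1 nuclear and 1 mitochondrially encoded one for 24 h over 6 h, and 2 nuclear ones for 24 h over 1 h, or 3 with the length trend removed.

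Leaving out 1 library at a time gave 2 to 8 nuclear members higher and 0 to 8 lower at 24 h against unstimulated cells, the 0 without library 1 of the 24 h group and the 8 lower without library 2 of the unstimulated group, and 0 to 2 mitochondrially encoded ones higher. It gave 0 to 8 nuclear members lower and 0 to 1 mitochondrially encoded ones higher at 6 h, 0 to 1 nuclear ones lower at 1 h, 4 to 36 higher for 24 h over 6 h, with 0 to 1 mitochondrially encoded ones in either direction, and 1 to 12 higher and 0 to 1 lower for 24 h over 1 h, with 0 to 5 mitochondrially encoded ones higher. Genes called ran from 89 to 531 at 6 h, 15 to 122 at 1 h and 8 to 24 for 6 h over 1 h. The highest of each came without library 3 of the 6 h group.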
